A study of Mus musculus with 4 samples.

Results

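Laminins, nidogens and perlecan form the scaffold of the basement membrane, the sheet of matrix that wraps every muscle fibre. They were followed here as 9 genes of 12861 that could be named in the deposited transcripts of differentiating C2C12 cells. The genes were chosen by name, with earlier results of these data known. They are 3 laminin alpha chains (Lama2, Lama4, Lama5), both broadly expressed beta chains (Lamb1, Lamb2) and the common gamma chain (Lamc1). The rest are both nidogens (Nid1, Nid2) and perlecan (Hspg2). C2C12 is a mouse skeletal myoblast line, labelled as strain C57BL/6, that fuses into multinucleated myotubes when serum is withdrawn. One library was made from cells growing exponentially in medium with 20% fetal bovine serum, 24 h before the switch, and 1 library each from cells kept in low serum for 60, 120 and 168 h after reaching confluence. All 4 libraries hold polyadenylated RNA of the same line, with no added gene, drug or second cell type named in the labels.

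A laminin molecule is a trimer of 1 alpha, 1 beta and 1 gamma chain, and the alpha chain carries the sites that cells bind. In muscle, the trimer with the alpha2 chain (merosin) links the matrix to dystroglycan and to integrin alpha7 beta1 on the fibre, and loss of alpha2 causes a congenital muscular dystrophy. Nidogens bridge the laminin gamma1 arm to type IV collagen and perlecan, and perlecan, a very large heparan sulfate proteoglycan, holds growth factors and binds dystroglycan.

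Levels are in RPKM, which divides fragments by transcript length and library size, so that genes can be compared with each other. The libraries held 24488681 to 48228888 fragments, with 120 h the shallowest. The sign ± gives the distance from a value to its deposited confidence limit, which covers counting and the assignment of fragments to transcripts, not the variation between cultures. There were no replicates, so no test was possible. The words rose and fell are kept for genes whose log2(RPKM + 1) moved by 1 or more (2-fold) between libraries, that reached 1 RPKM in the higher one, and whose limits did not overlap. Each gene was measured in 2 ways, as the sum over its assembled transcripts and as the level through its introns, the median over introns of the RPKM of all transcripts that hold each. The sum counts a gene more than once where its assembly is broken into pieces, so levels below are through the introns unless the sum is named. "Not assembled" means that no transcript was named to the gene, because none was built or because a built one was not matched to it. It does not show that a gene is silent. Rpsa, which encodes a ribosomal protein that is also a laminin receptor, was not assembled in any library.

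Muscle markers were high after the switch. All 7 genes of the skeletal muscle list rose between growth and 60 h by both measures, against 11.1% of all genes by either. Totals in this paragraph add the sums over transcripts. The muscle total was 499.4, 9330, 13050 and 12510 RPKM in growth and at 60, 120 and 168 h. Des made up 451.6 RPKM of the growth total, and Tnnt3 was not assembled in growth or at 120 h. The sum over 5 proliferation genes was 455.4 in growth and 24.11 at 168 h. None of 5 Schwann cell markers was assembled in any library, and 6 endothelial markers summed to between 1.196 and 10.44 RPKM. The fibroblast list had 4 of 6 genes assembled at 60, 120 and 168 h, and its summed RPKM was 7.21, 11.58, 26.92 and 14.92 in time order. The median log2 ratio of its assembled genes from 60 to 120 h was 1.06 by the sum and -0.02 through the introns. The smooth muscle list, led by Acta2, went from 1881 RPKM in growth to 503.6 at 168 h. The part of these lists in the results below was not tested. In cultures of mixed myotubes and unfused cells, fewer cells of a type and less RNA per cell cannot be told apart.

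Over the whole course the basement membrane genes were higher more often than lower. From growth to 168 h, 4 of the 9 rose and none fell through the introns, where 15.7% of 12406 genes rose and 18.3% fell. Those 4 were Lama2, Lama5, Lamb2 and Hspg2, and the gene nearest to a fall was Nid1. By the sum the count was also 4 of 9 risen, against 15.5% of all genes, with Lama4 in place of Lama5. The median log2 ratio of the 9 was 0.95 by the sum and 0.46 through the introns, and that of all genes was -0.11 and -0.10. The 0.46 is the value of Lama4, which was not assembled in growth and was taken as 0 there. Over the 8 members assembled in both libraries the median was 0.67 by the sum and 0.81 through the introns. Most of the rise was spread over several steps. Through the introns, Lama2 alone rose from growth to 60 h and no member fell, where 11.1% of genes rose and 11.4% fell. None met the rule from 60 to 120 h (4.18% of genes rose and 4.52% fell) or from 120 to 168 h (4.44% rose and 4.28% fell). By the sum, Lama4 rose and Nid1 fell at the first step, where 11.1% of genes rose and 15.4% fell. Lama2 rose at the second (12.4% of genes rose and 3.84% fell), and no member changed at the last (4.17% rose and 10.1% fell). Against growth, 0 of the 9 had fallen at 168 h by the sum, and 18.5% of all genes had. The comparisons with growth share the growth library, and each 2 neighbouring steps share a library, so they are not independent of each other.

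**Figure D1:**
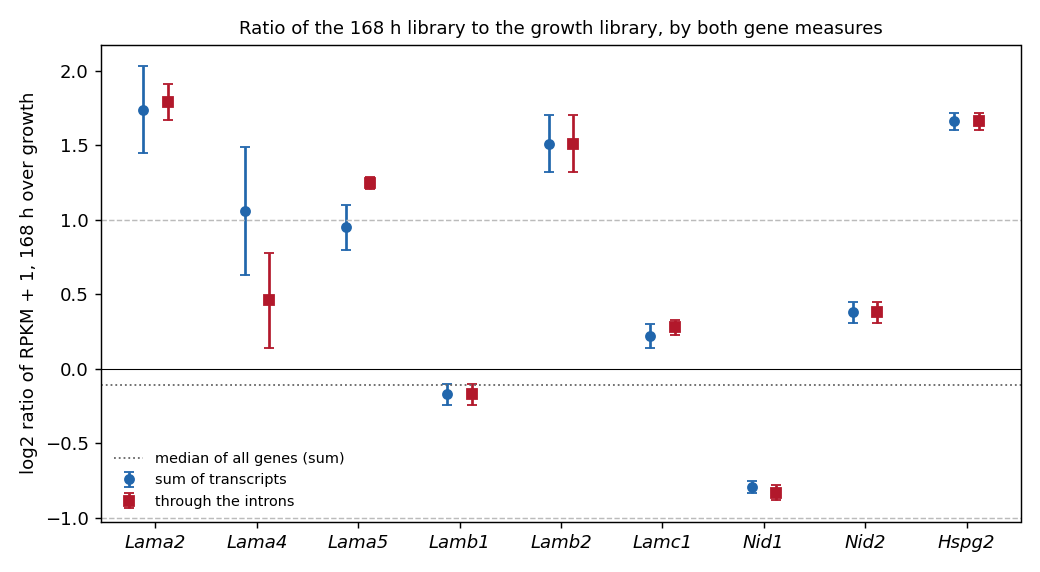
Log2 ratio of RPKM + 1 in the 168 h library over the growth library for the 9 genes, by the sum of transcripts (circles) and through the introns (squares), with bars to the confidence limits and dashed lines at 2-fold. Lama2, Lamb2 and Hspg2 lie above 2-fold by both measures, Lama5 and Lama4 by 1 measure each, and Nid1 is the lowest of the 9 at -0.83 through the introns.

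Among the alpha chains, Lama5 was the most abundant in every library and Lama2 the one with the larger fold. Lama2, at chromosome 10, 26704099 to 27336784 in the files' coordinates, stood at 3.03 ± 0.257 RPKM in growth, 8.03 ± 0.296 at 60 h, 9.26 ± 1.44 at 120 h and 12.9 ± 0.780 at 168 h. The growth library was the lowest, with limits clear of the other 3, while those at 60 and 120 h overlapped. The rise to 60 h was 2.65-fold (log2 ratio 1.16 ± 0.10), and the rise from growth to 168 h was 4.26-fold (1.79 ± 0.12). The sum placed the same gene at 9.76 ± 2.08, 10.9 ± 0.662, 24.1 ± 2.67 and 34.9 ± 1.82 RPKM, with a log2 ratio of 0.15 at 60 h and a rise of 1.08 from 60 to 120 h that the intron measure, at 0.18, did not show. In those sums Lama2 was in 4, 2, 2 and 3 pieces that do not overlap. For 168 h against growth the sum gave 1.74 ± 0.29, close to the intron value.

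Lama5 encodes an alpha chain widespread in developing and adult basement membranes. Its level at chromosome 2, 179909800 to 179960631, was 15.5 ± 0.438 RPKM in growth, 23.9 ± 0.396 at 60 h, 29.3 ± 0.648 at 120 h and 38.2 ± 0.552 at 168 h. Each library was above the one before it, with limits apart at every step. The ratio from 60 to 120 h, 0.28 on the log2 scale, was 0.09 with either rescaling of the libraries. None of the 3 steps was as large as 2-fold, and the total of 2.46-fold (log2 ratio 1.25 ± 0.04) met the rule. By the sum the ratio was 0.95 and missed it, because a short piece beyond the main transcript was counted to the gene in growth alone. All 4 libraries had 79 exons joined in 1 transcript, which ended 1670 bases into the last exon at 60 h and 368 to 373 bases into it in the others.

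Lama4, the alpha chain of vessel and embryonic muscle laminins, was at the edge of detection. It was not assembled in growth, and its sums were 1.06 ± 0.807 RPKM at 60 h, 0.402 ± 0.569 at 120 h and 1.09 ± 0.617 at 168 h. Only 6 of its 37 annotated introns appeared in any library. The 60 h value rests on 9 fragments, so its rises by the sum, computed with growth taken as 0, carry no fold. Lama1, an embryonic alpha chain outside the 9, was likewise in 12 to 17 scattered pieces after the switch, at 0.411, 0.814 and 0.508 RPKM through the introns, and Lama3 was not assembled in any library.

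**Figure D2:**
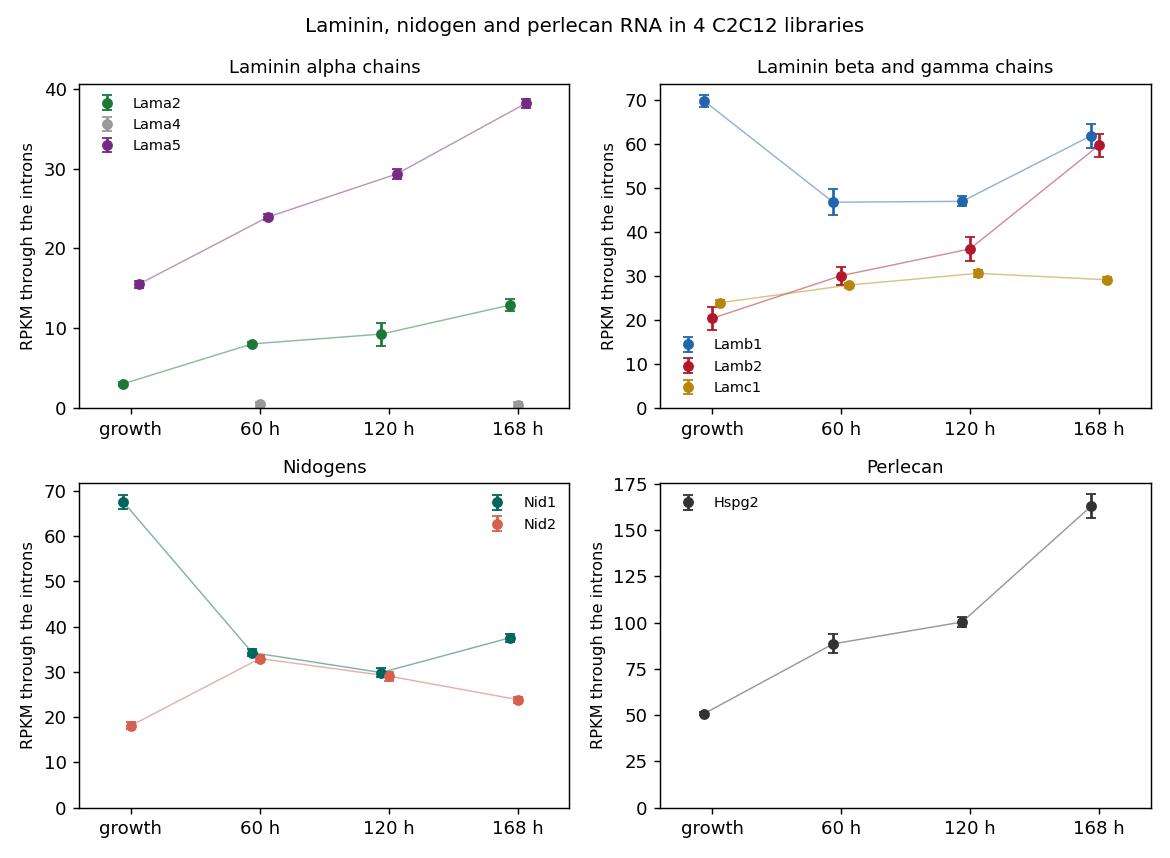
RPKM through the introns of each gene in the growth, 60, 120 and 168 h libraries, 1 library per point with bars to the confidence limits, in panels by role. Lama2, Lama5, Lamb2 and Hspg2 are highest at 168 h, Lamb1 and Nid1 are highest in growth, and Lamc1 stays between 23.9 and 30.6 RPKM.

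The assembled Lama2 transcripts also differed in form between the time points. Annotated exons 20 and 21 of 65 flank an intron of 3347 bases, inside the coding sequence. In growth the 1 transcript that reached this intron joined both exons, though Lama2 rested on 819 fragments there, the fewest of the 4 libraries. After the switch a second form left exon 20 by an intron of 663 bases (chromosome 10, 26927472 to 26928134) into sequence that the annotation gives as intronic. Its 21-exon transcript was at 1.37 ± 0.373 RPKM at 60 h, 6.89 ± 1.12 at 120 h and 3.86 ± 0.618 at 168 h. As a share of the transcripts leaving exon 20, that was 14.6% ± 3.42, 67.2% ± 7.42 and 27.4% ± 3.33. The share was highest in the 120 h library and lower on both sides of it, with limits that did not overlap. At 120 h it sets the 21-exon transcript against 1 transcript of 60 exons, at 3.36 ± 0.992 RPKM. Both hold the exons up to exon 20, so these shares rest on how the assembly divided fragments between them.

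A separate set of transcripts began in the same stretch and joined exon 21 by an intron of 2417 bases, at 5.90 ± 1.04 RPKM at 120 h and 2.67 ± 0.601 at 168 h. Both introns leave 267 bases between them (26927205 to 26927471), a whole number of codons (89). No transcript crossed the middle 69 of those bases, so the files hold 2 ends facing each other and not 1 assembled exon. The annotated join of exons 20 and 21 is shown here because it is the point where the forms part. It was read from GENCODE transcripts on GRCm38 (chromosome 10, minus strand, exons at 27208329 to 27208435 and 27204801 to 27204981), with 24 bases of each exon and capitals for the 3 bases on each side of the join.
Lama2 exon 20 to 21: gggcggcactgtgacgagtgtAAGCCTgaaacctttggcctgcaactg
The 2844 coding bases before this join are a whole number of codons, so an insertion of 267 bases would leave the frame as it is. The sequence of those 267 bases was not read, so stop codons in it were not looked for. Farther along, an annotated intron of 16350 bases had an unannotated form of 16488 bases. It was in 36.3% ± 7.95 of the RPKM of transcripts spanning it at 120 h and 20.7% ± 3.78 at 168 h. None of the growth or 60 h transcripts held it. At 120 h it was in the transcript that joined exons 20 and 21, and at 168 h in the one that began in the stretch. These shares and those at exon 20 thus rest on the same joining and are not separate observations.

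**Figure D3:**
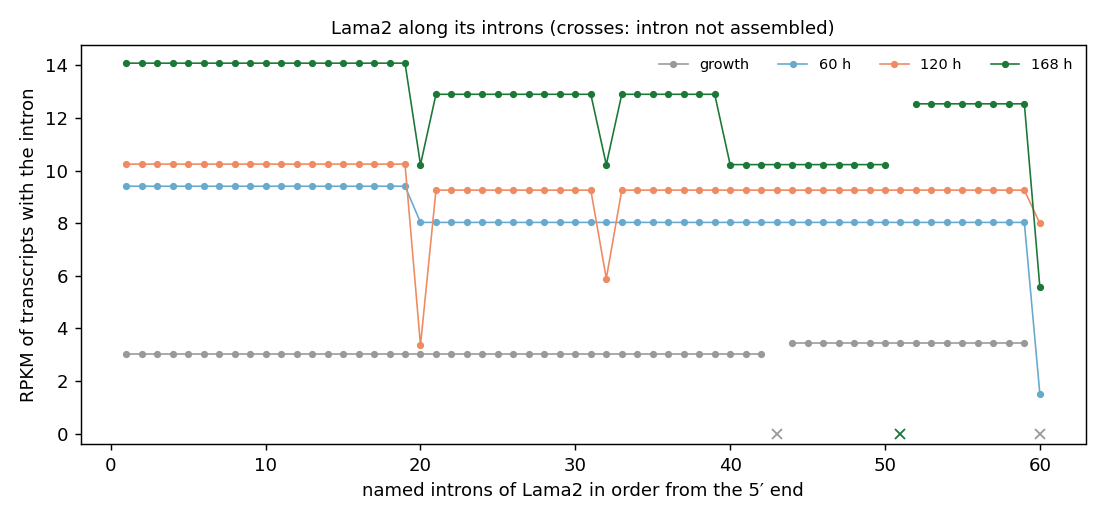
RPKM of the transcripts holding each of the 60 named Lama2 introns, ordered from the 5′ end, for the 4 libraries, with crosses for introns not assembled. Intron 20 is at 3.36 RPKM at 120 h, between stretches at 10.2 and 9.26, and intron 32 is also lower than its neighbours at 120 and 168 h. Other steps lie where a transcript begins, ends or takes an unannotated intron.

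The beta chains came closer in abundance, with Lamb1 the higher value in every library. Lamb1, on chromosome 12 at 31950117 to 32014606, encodes the beta chain of most embryonic laminins. It stood at 69.8 ± 1.30 RPKM in growth, 46.8 ± 3.01 at 60 h, 47.0 ± 1.15 at 120 h and 62.0 ± 2.72 at 168 h. It was highest in growth and its limits at 60 and 120 h overlapped, but no comparison reached 2-fold, the log2 ratio to 60 h being -0.57 ± 0.09.

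Lamb2 encodes the beta chain that is concentrated at neuromuscular junctions, and it lies on chromosome 9 at 108382218 to 108392863. Its level was 20.4 ± 2.66 RPKM in growth, 30.1 ± 2.07 at 60 h, 36.2 ± 2.80 at 120 h and 59.8 ± 2.58 at 168 h. The limits of each library lay above those of the one before. It rose 2.93-fold from growth to 168 h (log2 ratio 1.51 ± 0.19), with steps of 0.54, 0.26 and 0.71 that did not meet the rule singly. The middle step was 0.06 or 0.07 with rescaling of the libraries. The ratio of Lamb1 to Lamb2 was 3.43 ± 0.452 in growth, 1.56 ± 0.147 at 60 h, 1.30 ± 0.105 at 120 h and 1.04 ± 0.0639 at 168 h. At 168 h the limits of the 2 levels overlapped.

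Both Lamb2 transcripts in each library differed in the first intron, of 83 or 88 bases, and the 88-base form took 19.7% ± 7.49 in growth and 10.5% ± 2.60 at 168 h, with limits that overlapped. Lamb3, a beta chain of epithelial laminins outside the 9, rose from 4.02 ± 0.379 to 9.08 ± 0.434 RPKM at 60 h and stood at 3.31 ± 1.06 at 168 h.

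Lamc1, the gamma chain of nearly all laminins, was the least variable of the 9. On chromosome 1 at 155066038 to 155180207, it was at 23.9 ± 0.663 RPKM in growth, 28.0 ± 0.543 at 60 h, 30.6 ± 0.809 at 120 h and 29.2 ± 0.584 at 168 h. Its largest ratio among the 4 comparisons made, 168 h against growth, was 0.28 ± 0.05 on the log2 scale.

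Summed over all assembled chains of a class, alpha RNA was at 18.5 ± 0.508 RPKM in growth, 32.8 ± 0.734 at 60 h, 39.4 ± 1.72 at 120 h and 52.0 ± 1.07 at 168 h. Beta RNA was at 94.2 ± 2.98, 86.0 ± 3.68, 88.6 ± 3.49 and 125 ± 3.90 RPKM, and gamma RNA at 28.3 ± 0.910, 33.4 ± 0.819, 36.3 ± 1.55 and 32.0 ± 1.03. In growth the alpha class was the lowest of the 3, and at 168 h it was above the gamma class. Lama2 made up 16.3% ± 1.22 of the alpha class in growth and 24.8% ± 1.18 at 168 h, while Lama5 made up 83.7% ± 1.22 and 73.5% ± 1.33.

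**Figure D4:**
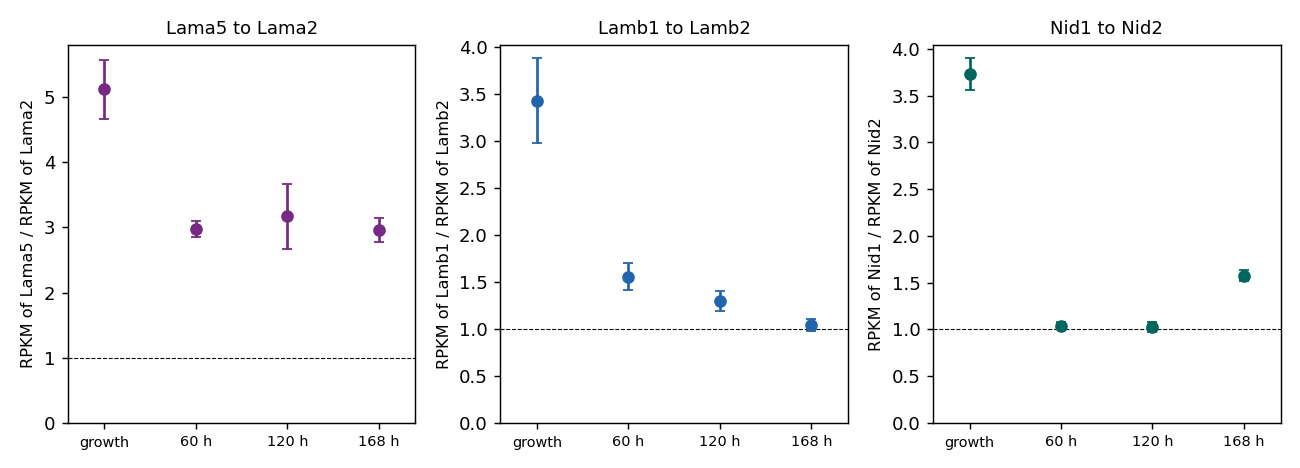
Ratio of RPKM through the introns for Lama5 to Lama2, Lamb1 to Lamb2 and Nid1 to Nid2 in the 4 libraries, with bars to the limits and a dashed line at equal levels. Each ratio is highest in growth. Lamb1 to Lamb2 is lower at each later library, and Nid1 to Nid2 is at 1.04 at 60 h, 1.03 at 120 h and 1.57 at 168 h.

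On leaving growth, the value of Nid1 was lower and that of Nid2 higher. Nid1 lies on chromosome 13 at 13529853 to 13604501 and encodes the more widely expressed of the pair. It was at 67.6 ± 1.496 RPKM in growth, 34.3 ± 0.822 at 60 h, 29.8 ± 1.08 at 120 h and 37.5 ± 0.903 at 168 h. Growth stood far above the other 3 libraries. The log2 ratio to 60 h was -0.96 ± 0.05, just short of 2-fold, and by the sum it was -1.02 ± 0.04, so that Nid1 fell by that measure (1 of 9 members, against 15.4% of all genes). The sums were 144 ± 3.01, 70.4 ± 1.57, 69.5 ± 2.27 and 82.6 ± 1.88 RPKM. In every library the gene was in 2 pieces, 7 and 13 exons long, split at the same intron, so the sums add the levels of both pieces.

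Nid2, on chromosome 14 at 20570492 to 20631149, was at 18.1 ± 0.725 RPKM in growth, 32.9 ± 0.738 at 60 h, 29.1 ± 0.991 at 120 h and 23.9 ± 0.670 at 168 h. It was lowest in growth and highest at 60 h, with limits apart in all 4 libraries. Its log2 ratio at 60 h was 0.83 ± 0.06, below the threshold. Nid1 was 3.73 ± 0.170 times Nid2 in growth and 1.04 ± 0.0341 times at 60 h, where the limits of both genes overlapped. An annotated gene on the other strand, Rtraf, overlaps exons of Nid2 and was itself assembled, and fragments of both cannot be told apart without strand. Copies were a concern for Nid1 alone, where 2.4% of 417 sampled words of 50 bases also occur in Gm2399, against 0 of those sampled in each of the other 8 genes.

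Hspg2 was the most abundant of the 9 at 60, 120 and 168 h. On chromosome 4 at 137024695 to 137126612, perlecan RNA was at 50.8 ± 0.708 RPKM in growth, 88.5 ± 5.20 at 60 h, 100.3 ± 2.62 at 120 h and 163 ± 6.34 at 168 h. Each library lay above the one before, with limits apart. It rose 3.21-fold from growth to 168 h (log2 ratio 1.66 ± 0.06) by steps of 0.79, 0.18 and 0.69, of which the middle one was -0.02 with either rescaling of the libraries. In growth it ranked behind Lamb1 and Nid1, whose limits overlapped each other.

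In addition, 2 short exons of perlecan were assembled in the later libraries and in no transcript of the growth library. Neither is in the annotation, both lie inside the coding part, and both hold a whole number of codons. An exon of 51 bases (chromosome 4, 137066032 to 137066082) lies in the annotated intron of 2077 bases between exons 6 and 7. It was held by 0% of Hspg2 RPKM in growth, 28.3% ± 3.19 at 60 h, 12.4% ± 1.56 at 120 h and 54.2% ± 1.95 at 168 h. In RPKM, transcripts with the exon stood at 25.1 ± 3.66, 12.4 ± 1.76 and 88.3 ± 4.48 after the switch, and those without it at 63.4 ± 3.70, 87.9 ± 1.94 and 74.6 ± 4.48.

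An exon of 18 bases (137115866 to 137115883) lies in the intron of 982 bases between exons 80 and 81. Its shares were 0% in growth, 100% at 60 h, 12.4% ± 1.56 at 120 h and 45.8% ± 1.95 at 168 h. No transcript without it was assembled at 60 h. At 168 h the exons sat in different transcripts, the only 2 assembled, so each share fixes the other. At 120 h both sat in the same transcript, which also skipped annotated exons by an unannotated intron of 1970 bases. The exons lie 49.8 kb apart, far beyond what 1 sequenced fragment spans, so no fragment shows which transcripts hold both. The shares rest on how the assembly joined them. Both annotated joins are printed below as places where such an exon would enter, from GENCODE transcripts on GRCm38, plus strand, with capitals for the 3 bases on each side. Exons 6 and 7 are at chromosome 4, 137508304 to 137508464 and 137510542 to 137510670, and exons 80 and 81 are at 137559314 to 137559430 and 137560413 to 137560515.
Hspg2 exon 6 to 7: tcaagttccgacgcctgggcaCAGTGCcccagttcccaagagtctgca
Hspg2 exon 80 to 81: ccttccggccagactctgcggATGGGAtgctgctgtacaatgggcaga
Each join falls after the first base of a codon, and neither extra exon would shift the frame by its length. The sequences of the extra exons were not read, so stop codons in them were not looked for.

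**Figure D5:**
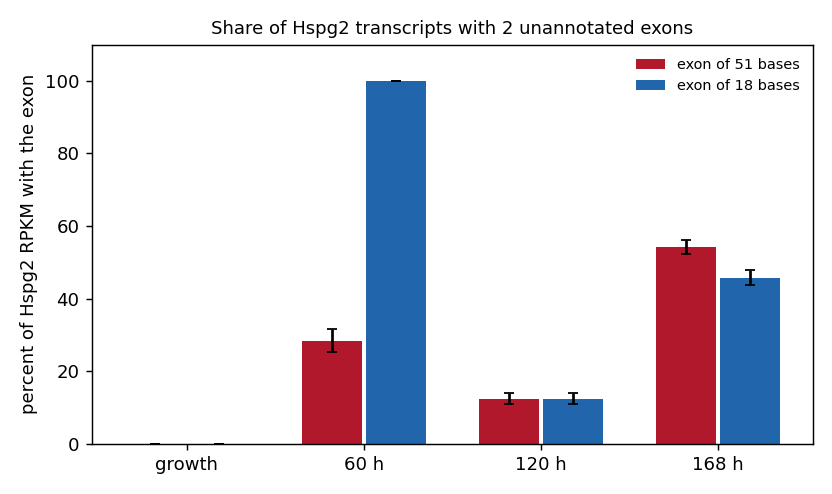
Percent of Hspg2 RPKM in transcripts that hold the exon of 51 bases or the exon of 18 bases, in the 4 libraries, with bars to the limits. Both are at 0 in growth and both are present in each later library, at 54.2% and 45.8% at 168 h.

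Promoter sequence was at hand for 6 of the 9 genes (RefSeq, GRCm38.p6), and the 250 bases before the start were searched on both strands for 3 motifs. The GC box core GGGCGG is present in 32.7% of 32851 such promoters. Hspg2 holds 5 matches, Lama5 holds 4, Lamb1 holds 2 and Nid1 holds 1, and there is none in Lama2 or Lamb2. The E-box form CAGCTG is in 13% of all promoters, the TATA box form TATAAA is in 12.4%, and none of the 6 holds either. The GC content was 70.0% for Hspg2 and 43.6% for Lamb2, against a median of 52.4%. These 2 are printed since both genes rose by both measures and their promoters differ in base content, with matches to GGGCGG or its reverse complement in capitals. They lie at chr4:137468553-137468802 and chr9:108479612-108479861, both on the plus strand.
Hspg2 promoter: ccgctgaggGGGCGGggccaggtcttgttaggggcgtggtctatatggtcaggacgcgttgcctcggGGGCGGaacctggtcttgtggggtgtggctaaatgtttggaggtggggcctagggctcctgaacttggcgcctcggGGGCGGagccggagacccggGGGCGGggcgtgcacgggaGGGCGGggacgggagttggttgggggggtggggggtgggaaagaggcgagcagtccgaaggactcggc
Lamb2 promoter: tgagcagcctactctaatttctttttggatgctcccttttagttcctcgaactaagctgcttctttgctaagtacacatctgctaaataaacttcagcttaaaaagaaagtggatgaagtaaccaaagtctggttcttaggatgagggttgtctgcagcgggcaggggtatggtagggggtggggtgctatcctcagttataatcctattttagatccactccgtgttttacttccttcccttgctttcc
The letters say nothing about whether a factor binds there in these cells.

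For each gene assembled throughout, the protein-coding gene with the most similar course was sought among 9281 genes, as the smallest Euclidean distance between centred log2(RPKM + 1) sums over the 4 libraries. The nearest to Hspg2 was Inpp5k (distance 0.057), at 7.02, 13.2, 14.7 and 25.6 RPKM in time order. Lamb2 lay nearest to Azin2 (0.077), Lama2 to Ndrg2 (0.049), Lama5 to Tsc2 (0.031), Lamb1 to Abcc5 (0.013), Lamc1 to Dcaf12 (0.036), Nid1 to Abl1 (0.031) and Nid2 to Smarce1 (0.042). With 4 libraries to compare, near matches are many, and these describe shape alone. The match of Lama2 rests on its sums, which gave a log2 ratio of 0.15 at 60 h, where the intron measure gave 1.16.

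The receptors that laminins bind moved in both directions. Of 13 genes of receptors and their partners, 5 rose and 3 fell by the sum from growth to 60 h, against 11.1% and 15.4% of all genes, with 12 assembled and a median log2 ratio of 0.30. Through the introns 4 rose and 3 fell, against 11.1% and 11.4%, with a median of 0.17. From growth to 168 h, 3 rose and 4 fell by the sum, against 15.5% and 18.5% of all genes. Through the introns 2 rose and 4 fell, against 15.7% and 18.3%, and the median was -0.18 by both measures. Itga7, the alpha subunit of the muscle laminin integrin, rose from 60.7 ± 4.44 RPKM in growth to 278 ± 5.32 at 60 h and stood at 401 ± 10.01 at 120 h and 388 ± 6.93 at 168 h. Sdc3, a syndecan, fell from 51.7 ± 1.23 to 10.7 ± 0.429 RPKM at 60 h, was not assembled at 120 h and was at 10.5 ± 0.444 at 168 h. Dystroglycan (Dag1), named after its values were seen, was at 19.2 ± 3.86, 53.9 ± 7.40, 24.7 ± 6.42 and 31.9 ± 4.36 RPKM.

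Dystroglycan binds laminins and perlecan through a sugar chain, and of 17 genes of that chain's synthesis 1 rose and 3 fell by the sum at 60 h, against 11.1% and 15.4% of all genes, with 13 assembled in either library and a median of -0.35. Pomk, a kinase of the core sugar, was not assembled in growth, which was taken as 0, and stood at 8.05 ± 0.480, 8.57 ± 0.705 and 8.97 ± 0.543 RPKM later.

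Other proteins of the basement membrane were also mixed, with 6 of 20 risen and 4 fallen by the sum at 60 h, against 11.1% and 15.4% of all genes. The median over the 19 assembled in either library was 0.56 with unassembled genes at 0, and over the 13 assembled in both libraries it had the other sign, -0.73 by the sum and -0.24 through the introns. Through the introns the list had 3 risen and 4 fallen, against 11.1% and 11.4% of all genes. Tinagl1, a matrix protein that binds laminin and integrins, fell from 43.7 ± 1.79 RPKM to 0.780 ± 0.244 at 60 h. Smoc2, a calcium-binding matrix protein, fell from 56.5 ± 3.11 to 9.01 ± 0.522. The main type IV collagen chain Col4a1, named after its values were seen, was at 50.6 ± 4.16, 20.9 ± 0.535, 17.5 ± 0.668 and 13.1 ± 0.454 RPKM, lower at every later time while Hspg2 was higher.

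Perlecan carries heparan sulfate, and of 26 genes that build or edit those chains 2 rose and 1 fell by the sum at 60 h, against 11.1% and 15.4% of all genes, with 23 assembled and a median of -0.04. Through the introns 3 rose and 0 fell, against 11.1% and 11.4%. Extl1, an exostosin-like glycosyltransferase, was at 0.171 ± 0.242 RPKM in growth and 16.6 ± 0.577 at 60 h by the sum. Glce, the epimerase that converts glucuronic to iduronic acid, rose from 7.68 ± 0.473 to 20.95 ± 0.601 RPKM and was at 9.62 ± 0.424 at 168 h.

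Among 12 proteases known to cut these proteins 3 rose and 2 fell by the sum at 60 h, against 11.1% and 15.4% of all genes, with 9 assembled and a median of 0.41. The counts through the introns were 4 and 1, against 11.1% and 11.4%. Mmp2, gelatinase A, rose from 12.4 ± 0.756 RPKM in growth to 48.6 ± 1.15 at 60 h and stood at 73.7 ± 1.98 at 120 h and 164 ± 2.16 at 168 h. Mmp9 fell by the sum, from 12.3 ± 3.75 to 0.883 ± 0.166 RPKM, but was at 1.36 ± 0.907 and 0.883 ± 0.166 through the introns, where limits overlapped.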

How the data were processed

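Polyadenylated RNA of C2C12 cells was fragmented, copied from random primers and sequenced from both ends, with 1 library at each of 4 time points, per the labels' protocols. The authors deposited assembled transcripts with RPKM values and confidence limits, which were used as deposited. The submitters' processing notes list TopHat 1.0.13 and Cufflinks 0.8.0 without a role, with a genome build not given in the sources used here. Coordinates come straight from the files.

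Genes were named by matching runs of intron, exon and intron lengths to GENCODE M21, which named 121687 of 137519 introns, and another 5655 by their own length where introns beside them were named (2.67% of these expected by chance). Distances to limits were added in quadrature. Deposited limits of single-transcript genes lie 2 square roots of a fragment count from the value, which gave the library sizes of 28513976, 48228888, 24488681 and 43845262 fragments in time order. The size rule was tested on simulated data at its main settings alone. Its 9 alternatives (pseudocount, minimum, scaling, gene measure, fold) were run on the deposited values and not on simulated data. A gene not assembled was taken as 0 with a pseudocount of 1. Python 3.11.15 and numpy 2.4.6 were used. The labels do not say how many cultures were used, or that strand was kept.

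The members, the 6 pathway lists and the 8 marker lists were chosen with earlier results of these data known. Named in the text are the 9 members, the 2 genes of each pathway list with the largest ratio among those meeting the rule at 60 h, the most alike gene of each member, and genes said to be named after their values were seen. Not every gene that fits this rule is reported here.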

Additional observations from a re-analysis of the deposited data

How the results depend on the processing

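No paired analysis was possible because each time point has 1 library and the labels give no replicate numbers, and for the same reason no library could be left out. From growth to 60 h, the count of members risen, 1 as reported, was 0 with a minimum of 5 RPKM, 3 with median-ratio rescaling (Lama4, with Nid2 at 1.05 and Hspg2 at 1.02) and 0 with the 4-fold rule. The count fallen at that step, 1 as reported, was 0 with median-ratio rescaling, equal totals, the intron measure, the union of exons and the 4-fold rule. The median of the members, 0.30, was 0.52 with median-ratio rescaling, 0.54 through the introns, 0.57 over the union of exons and 0.60 with multi-exon transcripts alone. That rescaling moved the median of all genes at this step from -0.18 to 0.02 and the share of calls that are rises from 41.8% to 55.9%. From 60 to 120 h, the count risen, 1 as reported, was 0 with both rescalings, through the introns, over the union and with the 4-fold rule. Multi-exon transcripts alone gave 1 fall (Lama4) there and 1 rise from 120 to 168 h. The median from 60 to 120 h, 0.13, was -0.07 with median-ratio rescaling and -0.06 with equal totals, and that from 120 to 168 h, 0.39, was 0.55 and 0.50. From growth to 168 h, the count risen, 4, was 3 with a minimum of 5 RPKM and 0 with the 4-fold rule. It was 5 with median-ratio rescaling and 5 with multi-exon transcripts alone. The median, 0.95, was 1.10 with median-ratio rescaling, 0.46 through the introns, 0.45 over the union and 1.06 with multi-exon transcripts alone. Each of these other medians is the value of Lama4, taken as 0 in growth. Over the 8 members assembled in both libraries the median was 0.67 by the sum and 0.81 through the introns.

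The share of Lama2 among alpha chains, by the sum 33.6%, 26.5%, 34.9% and 41.9% in time order, was 16.3%, 24.5%, 23.5% and 24.8% through the introns and 16.6%, 24.2%, 23.6% and 23.6% over the union. That of Nid2 among nidogens, by the sum 11.2%, 31.9%, 29.5% and 22.4%, was 21.2%, 49%, 49.3% and 38.9% through the introns and 20.5%, 48.6%, 46.9% and 37.5% over the union. The share of Lamb2 at 60 h, 33.1%, was 35% through the introns and with multi-exon transcripts alone, and 35.6% over the union. Sums count broken genes more than once, which the intron and union measures by construction do not.

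Of 216 recomputed ratios of single members, 10 changed sign, all of them between values that did not meet the rule, in Lamb1, Lamc1, Hspg2 and Lama4. The rises of Lama2, Lamb2 and Hspg2 from growth to 168 h were lost under the 4-fold rule and kept under the other 8 alternatives. With 1 library at each time, culture, batch and time cannot be told apart.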
